A study of Homo sapiens with 6 samples.

Results

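The 8 genes described here encode proteins that tumour cells secrete into or bind to the extracellular matrix: TIMP1, SPARC, FN1, LGALS1, LGALS3, CCN1, CCN2 and THBS1. They were taken as a list of symbols, and a gene was counted as measured when the table of counts held at least 1 row under its name. Of the 8 genes, 5 had rows (25 transcript models of the 21472 in the table, and 5 of its 10072 genes), and CCN1, CCN2 and THBS1 had none. Nanopore reads of cDNA had been counted in Calu-6 cells, an established human lung carcinoma line, in 2 groups. One group received a non-silencing control siRNA (siControl, 3 libraries). The other received an siRNA that spans the join of exons 1 and 5 in TERT Delta 2-4, a splice variant of telomerase reverse transcriptase (siDelta2-4, 3 libraries). Both siRNAs were given at 10 nM with a lipid reagent for 48 h. The labels gave a wild-type genotype to all 6 samples, whereas the names of the count columns carried the word the study used for cells with an empty vector. The study called its libraries biological replicates, but neither it nor the labels said whether those of a group came from separate cultures, so the p-values measure the spread between these libraries. Libraries are called the highest, the middle or the lowest of their group, after their totals. Totals lay between 1037468 and 1309241 counts, and TERT had 0 rows, so the knockdown was not analysed here.

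The extracellular matrix is a network of glycoproteins, collagens and proteoglycans, to which cells attach through integrins and other receptors. Fibronectin (FN1) is one of its fibril-forming glycoproteins. The matricellular proteins SPARC, thrombospondin 1 (THBS1), CCN1 and CCN2 are secreted into the matrix and modulate adhesion and growth factor signals more than they build structure. TIMP1 inhibits matrix metalloproteinases. Galectins 1 and 3 (LGALS1 and LGALS3) are lectins that bind beta-galactosides on glycoproteins, and they leave the cell without a classical signal peptide. CCN1, CCN2 and THBS1 are well-known targets of the YAP and TAZ coactivators and, like FN1, respond to TGF-beta in many cell types.

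The following stretches of the GRCh38 reference show the start of the TIMP1 and SPARC coding sequences, the splice site that separates the 2 main LGALS3 models and a coding exon of LGALS1. They are given 5′ to 3′ on the strand of the gene, with exon positions from Gencode 44. The first is the coding part of exon 2 of TIMP1-201 at chrX:47583416-47583536 (plus strand), with the start codon in capitals. Exon 1 before it is noncoding, and the 2 main TIMP1 models differ by 1 exon. The second is the coding part of exon 2 of SPARC-201 at chr5:151676132-151676188 (minus strand), with the start codon in capitals. The third begins with the 18 coding bases of exon 2 of LGALS3 and runs 60 bases into the following intron, at chr14:55137374-55137451 (plus strand), with the splice donor in capitals. That donor is used in LGALS3-201 and read through in LGALS3-207. The fourth is exon 2 of LGALS1-201 at chr22:37676986-37677065 (plus strand), which is coding throughout, from the most counted model of any member.
TIMP1 exon 2: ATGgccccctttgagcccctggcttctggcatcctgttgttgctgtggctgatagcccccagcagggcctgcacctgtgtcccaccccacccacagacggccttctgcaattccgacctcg
SPARC exon 2: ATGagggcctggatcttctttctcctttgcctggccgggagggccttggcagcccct
LGALS3 exon 2 and intron: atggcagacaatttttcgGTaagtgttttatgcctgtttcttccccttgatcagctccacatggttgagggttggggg
LGALS1 exon 2: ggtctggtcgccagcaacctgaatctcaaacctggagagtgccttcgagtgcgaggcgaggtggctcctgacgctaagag

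LGALS1 was by far the most abundant member, followed by TIMP1, LGALS3 and SPARC, and FN1 was barely counted. Per kilobase of its count-weighted mean model length, the level of LGALS1 was 4367 ± 297 CPM (CPM, counts scaled to a common total with TMM factors; SD over n = 6 libraries). The level of TIMP1 on this scale was 287 ± 33.1 CPM per kilobase, that of LGALS3 was 30.3 ± 5.59 and that of SPARC was 15.7 ± 2.73. Each of these neighbours in the order stood apart, since the lowest library of the more abundant gene lay above the highest library of the next. The order of LGALS3 and SPARC depended on the length term. In CPM without it, SPARC (50.1 ± 8.73) lay above LGALS3 (33.4 ± 6.17), because the mean model length was 3193 nt for SPARC and 1103 nt for LGALS3. LGALS1 and TIMP1 kept the first and the second place on both scales. All these levels leave out the counts under CLMAT3 and RN7SL385P, genes of the opposite strand at or near SPARC and LGALS1 that are described below. The order with those counts added was not computed.

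The 3 members with no row were not measured at any level that the table records. No row carried the symbols CCN1, CCN2 or THBS1, their older names or their gene identifiers. The table lists a model only where siDelta2-4 had at least 1 count, so a missing row is not a measured 0 and no upper limit was set for these genes. Of the 20046 protein-coding genes of Gencode 44, 6150 (30.7%) had a row, against 62.5% of the members. The members were chosen with earlier results of these data known, so the higher share is not a result about them. The canonical transcripts of the absent members were 2278 nt (CCN1), 2338 nt (CCN2) and 7789 nt (THBS1) long, and that of FN1 was 8390 nt. Among protein-coding genes with a canonical transcript of 2000 nt or more, 27.8% had a row, compared with 36.7% of those with a shorter one. Models longer than 2000 nt held between 9.98% and 10.2% of the counts in siControl libraries and between 10.3% and 10.6% in siDelta2-4 libraries. The part of transcript length in the missing rows was not tested.

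FN1 had 1 row with 2 counts in all. Both lay in siDelta2-4, with 1 count in the middle and 1 in the lowest library, and the 3 siControl libraries had none, which allows up to 3 counts in their 3221436 (0.931 CPM). A model was listed only where siDelta2-4 had at least 1 count, and 4526 listed models had no siControl count. The split of the FN1 counts is therefore not a difference between the groups. The row was FN1-227, an annotated retained-intron transcript of 2 exons and 2433 nt, and no model of a fibronectin coding transcript had a row. FN1 spans chr2:215360440-215436073 on the minus strand. FN1 did not pass the filter on low counts. It entered the fit with no filter alone and was not called there (adjusted p = 0.710, edgeR), and no fold is given for so few counts. Intervals and limits of this kind cover counting error only.

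None of the 4 members with enough counts to be tested differed between siDelta2-4 and siControl at an adjusted p under 0.1 (edgeR quasi-likelihood test, Benjamini-Hochberg over 3888 genes). In the same fit 504 genes (13.0%) were called, 272 higher and 232 lower in siDelta2-4. Of the members, 1 (SPARC) had an unadjusted p under 0.05, beside 23.1% of all genes tested, and DESeq2 also called none of the 3 members to which it gave an adjusted p. The median log2 fold change of the 4 members was 0.23, against 0.027 over all genes tested. SPARC and LGALS3 were higher in every siDelta2-4 library than in any siControl library, which held for 14.1% of all genes tested in that direction. Bulk counts cannot tell fewer cells that express a gene from less RNA per cell.

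SPARC, a collagen-binding matricellular glycoprotein also called osteonectin, lies at chr5:151661096-151686975 on the minus strand. Its CPM was 38.0, 47.0 and 43.1 in the highest, the middle and the lowest siControl library. In siDelta2-4 it was 55.2, 58.5 and 59.0 in the same order. All 3 siDelta2-4 values lay above all 3 siControl values, and the spread was narrower in siDelta2-4. The mean was 42.7 ± 4.50 CPM for siControl and 57.6 ± 2.03 CPM for siDelta2-4 (SD, n = 3 each). The log2 fold change was 0.43 (SE 0.17, 95% interval 0.070 to 0.79), with an unadjusted p of 0.0208 and an adjusted p of 0.131 (edgeR). SPARC rested on 340 counts, between 39 and 72 per library. It was called with library totals alone in place of TMM (log2 fold change 0.50, adjusted p = 0.0926, edgeR), a scaling with 361 higher and 152 lower calls over all genes. The sum of the SPARC counts and those under CLMAT3, described below, was called as well (log2 fold change 0.62, adjusted p = 0.0123, edgeR). Removing a trend on transcript length gave 202 higher and 268 lower calls, and left SPARC at 0.25 on the log2 scale (adjusted p = 0.403, edgeR).

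LGALS3, galectin 3, the chimera-type galectin with a collagen-like N-terminal part, lies at chr14:55124110-55145423 on the plus strand. Its CPM was 34.1, 24.9 and 26.8 in the highest, the middle and the lowest siControl library. In siDelta2-4 it was 39.9, 37.4 and 37.5. The groups did not overlap, although the highest siControl library lay closer to the siDelta2-4 values than to the other siControl values. The mean was 28.6 ± 4.85 CPM for siControl and 38.2 ± 1.44 CPM for siDelta2-4 (SD, n = 3 each). The log2 fold change was 0.42 (SE 0.21), with a 95% interval that spanned 0 (-0.0048 to 0.84), an unadjusted p of 0.0525 and an adjusted p of 0.220 (edgeR). LGALS3 had the fewest counts of the tested members, 227 in all and between 26 and 52 per library. It was not called under any of the alternatives, and its log2 fold change was positive in each of them.

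TIMP1 lies at chrX:47582408-47586789 on the plus strand. Its CPM was 252, 206 and 187 in the highest, the middle and the lowest siControl library. In siDelta2-4 it was 231, 236 and 198. The groups overlapped, and the highest siControl library held the highest value of all 6. The mean was 215 ± 33.2 CPM for siControl and 222 ± 21.0 CPM for siDelta2-4 (SD, n = 3 each). The log2 fold change was 0.049 (SE 0.12, 95% interval -0.19 to 0.29), with an adjusted p of 0.851 (edgeR). Leaving out the lowest siControl library turned the sign (log2 fold change -0.064, adjusted p = 0.732, edgeR).

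LGALS1, galectin 1, a small homodimeric lectin, lies at chr22:37675636-37679802 on the plus strand. Its CPM was 2465, 2460 and 2176 in the highest, the middle and the lowest siControl library. In siDelta2-4 it was 2153, 2142 and 2389. Of the siDelta2-4 values, 2 lay below all siControl values, and the lowest library lay within their range. The mean was 2367 ± 165 CPM for siControl and 2228 ± 139 CPM for siDelta2-4 (SD, n = 3 each). The log2 fold change was -0.088 (SE 0.079, 95% interval -0.25 to 0.074), with an adjusted p of 0.546 (edgeR). LGALS1 had 15358 counts, the most of any member and between 2272 and 2806 per library, and the interval of its difference was the narrowest. It was called lower in 1 setting, with the lowest siControl library left out (log2 fold change -0.17, adjusted p = 0.0746, edgeR), in which 1041 genes were called in place of 504. With the trend on transcript length removed its log2 fold change was 0.024 (adjusted p = 0.852, edgeR).

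**Figure D1:**
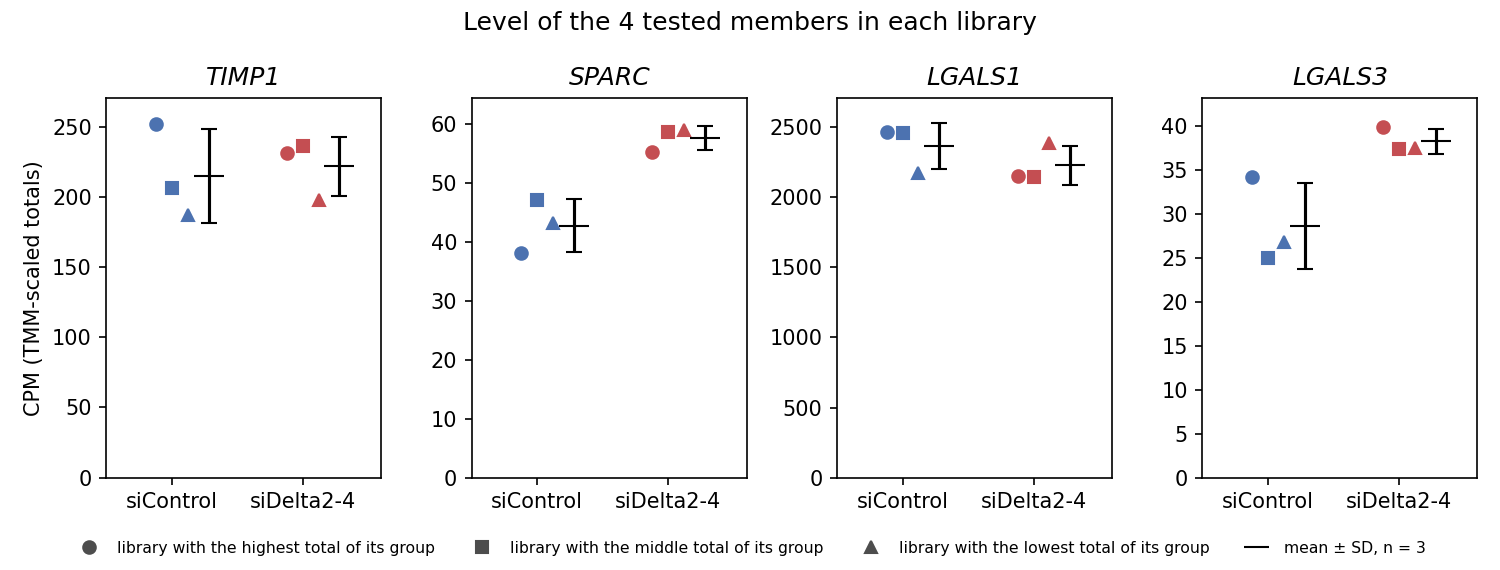
CPM (counts scaled to a common total with TMM factors, linear axes from 0, one scale per gene) of TIMP1, SPARC, LGALS1 and LGALS3 in the 3 siControl and 3 siDelta2-4 libraries, with a symbol for the highest, middle and lowest total of each group and the mean ± SD beside the points. The groups overlap for TIMP1 and LGALS1, and all 3 siDelta2-4 points lie above all 3 siControl points for SPARC (55.2 to 59.0 against 38.0 to 47.0 CPM) and LGALS3 (37.4 to 39.9 against 24.9 to 34.1 CPM).

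**Figure D2:**
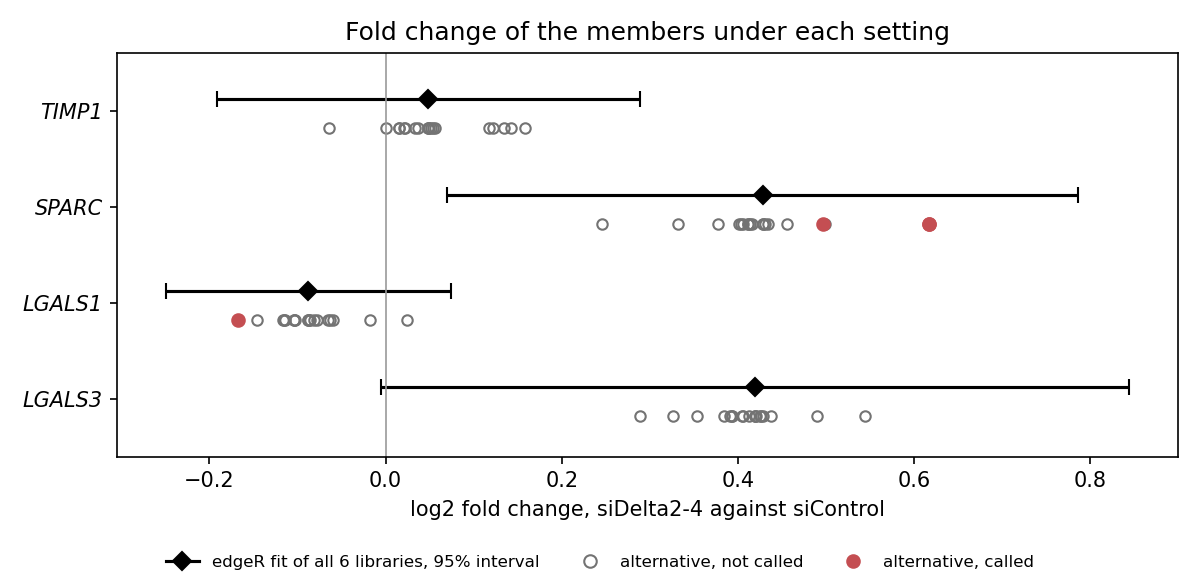
Log2 fold change of siDelta2-4 against siControl for the 4 tested members, with the edgeR fit of all 6 libraries as a diamond with its 95% interval and each alternative setting as a circle, filled where the gene was called. SPARC has 3 filled circles, of which 2 coincide at 0.62, and LGALS1 has 1, at -0.17, and the circles of TIMP1 and LGALS1 lie on both sides of 0.

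Most counts of the members lay on annotated models, and TIMP1 was the 1 of 3 members for which the share on them did not overlap between the groups. Over the 663 tested genes with both annotated and unannotated models, 3.77% had a share on annotated models that was higher in every siDelta2-4 library than in any siControl library. All 6398 unannotated models had 5 or more counts in every siDelta2-4 library, and 5173 had as many in every siControl library. That unequal rule can lower the 3.77%, and its effect was not tested. The 25 models were annotated transcripts or models that TALON, the long-read annotation program, had built from the reads. TALON calls a model an incomplete splice match when it holds a run of the junctions of an annotated transcript, and otherwise it marks the model as a new combination of known splice sites or as holding an unannotated splice site. Of the 25 models, 13 were tested and 0 were called (edgeR, adjusted p under 0.1), beside 6.91% of the 6768 models tested in all. Of the 13 models, 1 (SPARC-201) had an unadjusted p under 0.05. The share of all tested models under that limit was not computed, so this is not read as a result.

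For TIMP1 the full-length model TIMP1-201 (6 exons, 769 nt) held 1086 of 1471 counts, and a truncated model of 5 exons and 736 nt held 358. TALON called the truncated model an incomplete splice match with the 3′ end of the gene. Exons 2 to 6 of TIMP1-201, which carry the start codon printed above and the rest of the coding sequence, sum to 730 nt, and the remaining exon 1 (chrX:47582436-47582474) holds 39 bases of 5′ untranslated sequence. The truncated model held 26.4%, 28.8% and 27.7% of the TIMP1 counts in the highest, the middle and the lowest siControl library. In siDelta2-4 it held 23.9%, 20.6% and 19.9%. The groups did not overlap, and the mean share was 27.6% ± 1.24 for siControl and 21.5% ± 2.14 for siDelta2-4 (SD, n = 3 each). The share on annotated models was accordingly 72.4% in siControl and 78.5% in siDelta2-4, with an exact two-sided permutation p of 0.1, the smallest that 3 libraries against 3 allow (0.30 adjusted over the 3 members compared). The gene-level test of transcript usage gave an unadjusted p of 0.0442 and an adjusted p of 0.494 (edgeR diffSpliceDGE). Over the 1132 genes tested for usage, 0.618% were called and 9.63% had an unadjusted p under 0.05. In the fit of single models, the log2 fold change was 0.19 for TIMP1-201 (SE 0.12, adjusted p = 0.447) and -0.27 for the truncated model (SE 0.18, adjusted p = 0.460, both edgeR). With each library left out in turn these lay between 0.093 (without the lowest siControl library) and 0.31 (without the highest) for TIMP1-201, and for the truncated model between -0.40 (without the highest siDelta2-4 library) and -0.16 (without the lowest). TIMP1-202 (626 nt) had 23 counts and TIMP1-205 (1095 nt) had 4.

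LGALS1 was read as 14 models, the most of any member. LGALS1-201 (4 exons, 528 nt) held 83.8% ± 1.14 of its counts for siControl and 84.0% ± 1.13 for siDelta2-4 (SD, n = 3 each). The next model, a TALON combination of known splice sites with 4 exons and 526 nt, held 1486 counts, 10.0% ± 0.51 of the gene in siControl and 9.36% ± 0.60 in siDelta2-4. The other TALON models held between 32 and 179 counts each. The annotated LGALS1-202, a transcript of the nonsense-mediated decay class, had 22 counts, LGALS1-207 had 4 and the retained-intron transcript LGALS1-205 had 3. LGALS1 was not called for usage over its 9 tested models (adjusted p = 0.929, edgeR diffSpliceDGE).

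SPARC-201 (10 exons, 3451 nt), the longest model of any member, held 280 of the 340 SPARC counts. A TALON model with an unannotated splice site, 10 exons and 2056 nt held 51, and the retained-intron transcript SPARC-202 held 9. The share on annotated models was 85.4% ± 5.13 for siControl and 84.5% ± 5.14 for siDelta2-4 (SD, 3 libraries each), and an exact permutation test gave a two-sided p of 1.0. All 227 counts of LGALS3 lay on annotated models. LGALS3-201 (6 exons, 958 nt) held 183 of them, and LGALS3-207, in which the intron printed above is retained, held 43. The share of LGALS3-207 was 16.2% ± 5.90 for siControl and 20.3% ± 1.29 for siDelta2-4 (SD, n = 3 each), a range of 11.5% to 22.9% that held all 6 libraries.

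**Figure D3:**
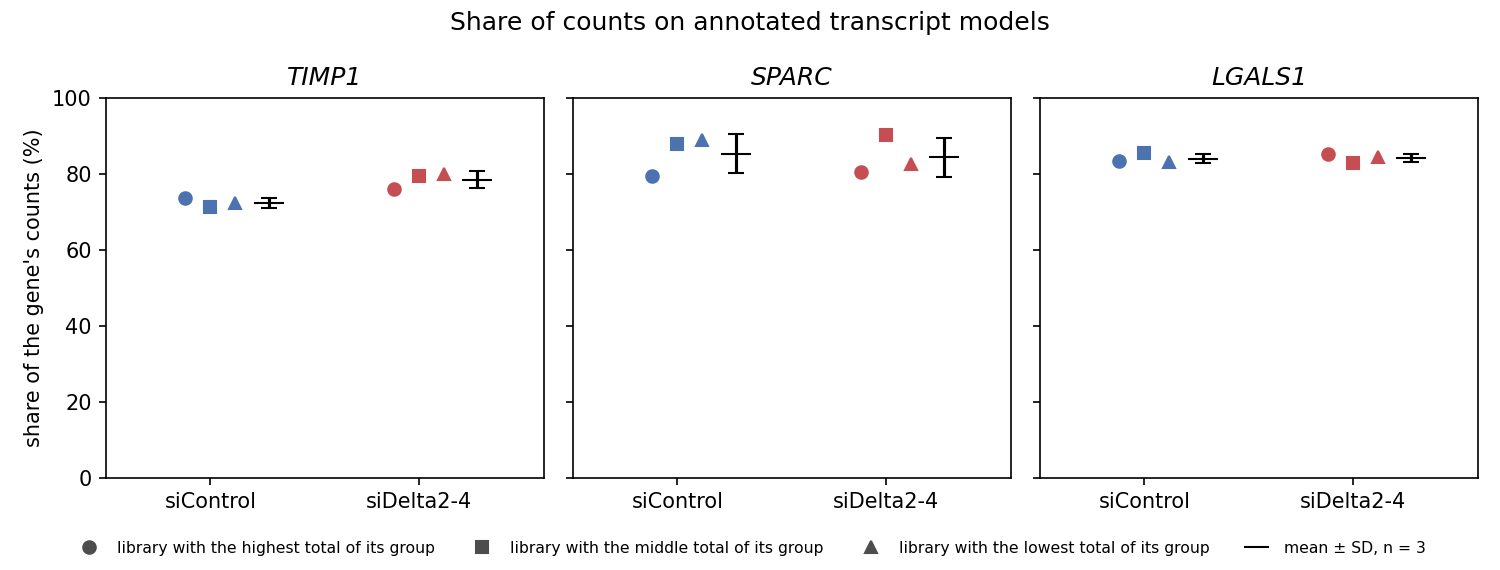
Share of the counts of TIMP1, SPARC and LGALS1 that lay on annotated transcript models, in percent from 0 to 100, in each library of siControl and siDelta2-4 with the mean ± SD. The TIMP1 points of siDelta2-4 (76.1% to 80.1%) lie above those of siControl (71.2% to 73.6%), and the points of the other 2 genes overlap.

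Annotated genes of the opposite strand carried counts on models that had the exon number and nearly the length of the main SPARC and LGALS1 transcripts. CLMAT3, a long noncoding RNA gene (ENSG00000249035.7, chr5:151676945-151725473, plus strand), overlaps SPARC and shares 191 exonic bases with it. Its only row was a TALON model of 10 exons and 3451 nt, the exon number and length of SPARC-201, whereas its annotated transcripts have 5, 3 and 2 exons and 1973, 410 and 1114 nt. TALON called this model an incomplete splice match, although it has more exons than any of those transcripts. CLMAT3 had 14, 27 and 36 counts in the highest, the middle and the lowest siControl library. In siDelta2-4 it had 57, 68 and 41. The groups did not overlap in counts, and CPM was 24.7 ± 10.5 for siControl and 45.8 ± 8.62 for siDelta2-4 (SD, n = 3 each). The CLMAT3 row was called higher in siDelta2-4 (log2 fold change 0.89, SE 0.24, adjusted p = 0.0220, edgeR). The call was lost when the highest siControl library was left out (log2 fold change 0.59, adjusted p = 0.137, edgeR) and when the middle siDelta2-4 library was (0.74, adjusted p = 0.166, edgeR). When the counts of CLMAT3 were added to those of SPARC, the sum had a log2 fold change of 0.62 and was called (adjusted p = 0.0123, edgeR).

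RN7SL385P, the signal recognition particle RNA pseudogene that lies 5897 bases from LGALS1 on the opposite strand (chr22:37669464-37669739), had about as many counts as LGALS1 itself. Its place here was decided with its counts already known. The annotated gene is 276 bases long, but its 9 models, all built by TALON, were spliced and between 441 and 640 nt long, and the most counted had 4 exons and 533 nt with 13847 counts. TALON called that most counted model an incomplete splice match. RN7SL385P had 2651, 2565 and 2330 counts in the highest, the middle and the lowest siControl library, where LGALS1 had 2528, 2565 and 2272. In siDelta2-4 it had 3004, 2646 and 2383 counts, where LGALS1 had 2806, 2636 and 2551. Over all libraries the ratio of RN7SL385P to LGALS1 counts was 1.01. Its log2 fold change was -0.12 (SE 0.078, adjusted p = 0.362, edgeR). It was called lower with the lowest siControl library left out (-0.20, adjusted p = 0.0270, edgeR), and lay nearer to 0 with library totals alone (-0.052) and with the length trend removed (-0.0096). The strand from which these reads came was not tested. Counts under the names CLMAT3 and RN7SL385P are therefore not read here as levels of those annotated genes. Near TIMP1 and LGALS3 the annotated genes of the opposite strand within 10 kb had no rows or, for DLGAP5 beside LGALS3, 4 counts, and unannotated genes could not be placed because no coordinates were used for them.

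**Figure D4:**
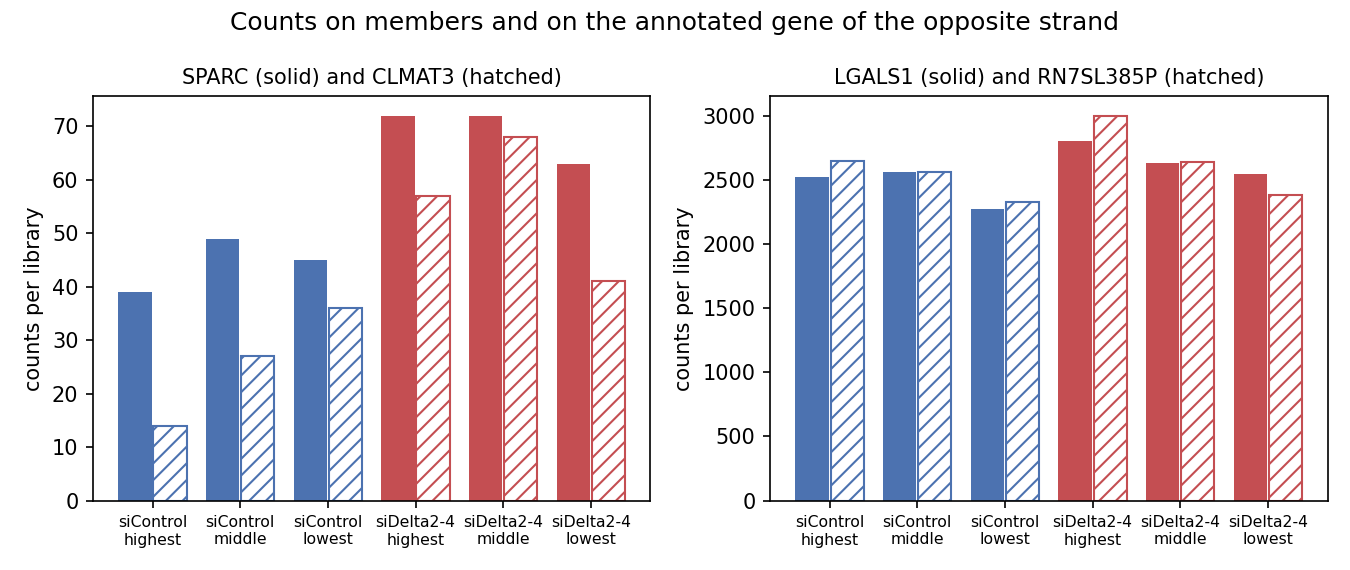
Counts per library (linear axes from 0) of SPARC and CLMAT3, and of LGALS1 and RN7SL385P, with the member as a solid bar and the annotated gene of the opposite strand as a hatched bar, blue for siControl and red for siDelta2-4. CLMAT3 has 14 to 36 counts in siControl and 41 to 68 in siDelta2-4, and the RN7SL385P bars stand close to those of LGALS1 in all 6 libraries.

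Most genes of the lists on the matrix and its receptors had no row, as held for protein-coding genes in general (30.7% with a row). The number with a row is therefore not read as a result about a list. Of 43 other matricellular and matrix glycoproteins, 7 had rows and 1 was tested, TGFBI, a TGF-beta-induced protein that binds collagen and integrins. TGFBI rose from 14.8 ± 3.28 CPM in siControl to 26.5 ± 3.35 CPM in siDelta2-4 (SD, n = 3 each, log2 fold change 0.84, SE 0.27, adjusted p = 0.0489, edgeR). Its 142 counts included 72 on a TALON model of 1 exon and 633 nt. The call was lost on leaving out the highest siControl library (adjusted p = 0.193, edgeR), the highest siDelta2-4 library (adjusted p = 0.114) or the middle one (adjusted p = 0.193). LAMB1, a laminin chain, had the next highest level of that list, at 2.25 ± 0.54 CPM in siControl and 4.98 ± 2.74 CPM in siDelta2-4 (SD, n = 3 each), and was not tested. TGFBI was also the only tested gene of 32 genes of the YAP, TAZ and TGF-beta pathway, of which 10 had rows. ANKRD1, a YAP target next in level on that list, had 21 counts in all (0.96 ± 0.96 CPM in siControl and 5.01 ± 1.36 CPM in siDelta2-4, SD, n = 3 each) and was not tested. A model was listed only where siDelta2-4 had at least 1 count. The split of the few ANKRD1 or LAMB1 counts is therefore not read as a difference between the groups.

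Among collagens and collagen processing genes 14 of 35 had rows and 1 was tested. It was PPIB, a prolyl isomerase of collagen folding, with 970 ± 63.5 CPM in siControl and 1104 ± 74.5 CPM in siDelta2-4 (SD, n = 3 each). PPIB was not called (log2 fold change 0.19, adjusted p = 0.170, edgeR), but was with library totals alone (0.25, adjusted p = 0.0142, edgeR) and with the length trend removed (0.21, adjusted p = 0.0781, edgeR). P4HB, a subunit of prolyl hydroxylase, stood at 8.34 ± 1.40 and 8.53 ± 1.29 CPM in siControl and siDelta2-4. Of 30 matrix proteases and inhibitors, 14 had rows, 4 were tested, 1 was lower and 0 were higher. The gene that fell was BSG, basigin, an inducer of metalloproteinases that is also a galectin ligand. It stood at 117 ± 30.0 CPM in siControl and 84.2 ± 10.1 CPM in siDelta2-4 (SD, n = 3 each, log2 fold change -0.48, SE 0.16, adjusted p = 0.0536, edgeR), with overlapping groups. The BSG call was lost with library totals alone (adjusted p = 0.166, edgeR), with a block on the column number (0.113) and with any of 3 libraries left out. Without the lowest siControl library the log2 fold change moved to -0.29 (adjusted p = 0.163, edgeR), whereas without the highest or the lowest siDelta2-4 library it was -0.40 (adjusted p = 0.204) and -0.47 (adjusted p = 0.145). MMP24, the most counted gene of that list, had 1003 counts and a log2 fold change of 0.25 (adjusted p = 0.182, edgeR). None of these counts lay on an annotated model, and whether they are levels of MMP24 was not tested. MMP24 was called with library totals alone (0.32, adjusted p = 0.0908, edgeR), and its value was 0.13 with the length trend removed.

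Of 13 galectins and galectin ligands other than the members, 6 had rows and 4 were tested, with BSG lower and the other 3 not called. CD44, a hyaluronan receptor that galectins and matrix proteins also bind, was not called (log2 fold change -0.20, adjusted p = 0.442, edgeR), but was called lower with the length trend removed (-0.38, adjusted p = 0.0983, edgeR). Of 27 receptors of the members, 9 had rows and 3 were tested. Counts under the name CD151, a tetraspanin that associates with laminin-binding integrins, were called lower in siDelta2-4. Their level was 771 ± 81.3 CPM in siControl and 531 ± 8.65 CPM in siDelta2-4 (SD, n = 3 each, log2 fold change -0.54, SE 0.090, adjusted p = 0.000331, edgeR). Of the 4313 CD151 counts, 4229 (98.1%) lay on 1 TALON model of 2 exons and 941 nt. Genes of the opposite strand were looked up near the members alone, so whether these counts are levels of CD151 was not tested. On annotated models alone CD151 had 84 counts and was not called (log2 fold change -0.24, adjusted p = 0.748, edgeR). CD63, a tetraspanin that binds TIMP1, was not called (log2 fold change 0.051, adjusted p = 0.810, edgeR), and its sign turned with the length trend removed (-0.025) and with the lowest siControl library left out (-0.026). Over these 6 lists the median log2 fold change of tested genes lay between -0.20 and 0.84, with 1 to 4 genes tested in each.

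Genes whose profile over the 6 libraries was nearest to that of a member were found by the root mean square difference of centred log2 CPM, among protein-coding genes with a mean of at least 50 CPM. The gene nearest to SPARC was DDOST, a subunit of the oligosaccharyltransferase, at a difference of 0.059, with a median over candidates of 0.27. For TIMP1 it was PHF1 at 0.051 (median 0.20), and for LGALS3 it was MT-CO2, a mitochondrially encoded subunit of cytochrome c oxidase, at 0.069 (median 0.27). The likeness rests on 6 libraries of 2 groups, and 882 candidates (883 for LGALS3) were compared for each of these members. The smallest of so many differences lies below their median by construction, so that contrast is not read as a result.

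Of 8 carcinoma line markers, KRT18 (1124 counts), VIM (987) and KRT8 (824) were well counted, KRT7 had 41 counts, EPCAM had 13 and KRT19 had 1, and CDH1 and CDH2 had no row. Their summed level was 419 to 426 CPM in siControl and 430 to 501 CPM in siDelta2-4. The sum of 7 fibroblast markers (2 with rows) stayed between 0.77 and 4.88 CPM, LUM had 12 counts, near the 13 of EPCAM, and COL1A1, COL1A2 and COL3A1 had no row. The sum of 7 blood cell markers (4 with rows) stayed between 0.81 and 5.37 CPM, and none of 4 endothelial markers had a row. KRT18 (log2 fold change 0.13, adjusted p = 0.541, edgeR) and VIM (0.27, adjusted p = 0.149, edgeR) were not called, VIM was called with library totals alone (0.34, adjusted p = 0.0643, edgeR) but had lower values with the length trend removed (0.10), with the same row rule for both groups (0.15) and on known models alone (0.17), and the sign of KRT18 turned with the length trend removed (-0.037).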

How the data were processed

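Long cDNA reads of 6 Calu-6 libraries were analysed from the count table that the authors deposited. Per the labels and the study's methods, the authors sequenced barcoded PCR-cDNA libraries pooled on 1 flow cell, aligned reads with minimap2 2.14 (SAMtools 1.13, GRCh38.p14), ran TranscriptClean and then TALON on Gencode 44, and kept an unannotated model when 3 samples had 5 or more of its reads. The deposited values were raw counts per transcript model, not normalised, with whole numbers throughout. Such counts depend on which molecules were amplified and read through, and a read that ends early can be assigned to a shorter model. Every unannotated model had at least 5 counts in each siDelta2-4 library, but as few as 0 in a siControl library.

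Counts were summed per gene ID and tested in R 4.3.3 by edgeR 4.0.16 (two-sided quasi-likelihood tests after filterByExpr and TMM, Benjamini-Hochberg over all genes, called at adjusted p under 0.1). Models were tested likewise, and usage with diffSpliceDGE. The SE is the log2 fold change over the square root of F. The alternatives were DESeq2 1.42.0, its size factors, library totals alone, no filter, at least 10 counts in every library, adjusted p under 0.05, known models alone, annotated genes alone, a loess trend on length removed (span 0.4), locus sums, a block on the column number and each library left out. Added after seeing the data were the sum with both opposite-strand genes and a row rule shared by the groups (unannotated models with 5 or more counts in all libraries). The members and lists were chosen with earlier results of these data known. Named were all members, called genes of each list (at most 5), the 2 highest genes of each list, overlapping genes with at least 10 counts and the nearest profiles (that for LGALS1 is not reported here). Deviations of columns with the same number were weakly correlated (0.039, -0.14 and -0.084), which cannot settle whether the libraries were paired.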

Additional observations from a re-analysis of the deposited data

How the results depend on the processing

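The number of members called was 0 in the edgeR fit of all libraries and 1 with library totals alone (SPARC), with the locus sum (SPARC with CLMAT3) and with both opposite-strand genes added (SPARC, log2 fold change 0.62, adjusted p = 0.0123, edgeR). With each library left out in turn it lay between 0 and 1 (LGALS1, with the lowest siControl library left out). No other alternative called a member, and the cause of these changes was not tested beyond what each setting adds or removes. Signs turned for LGALS1 (0.024), CD63 (-0.025) and KRT18 (-0.037) with the length trend removed. With each library left out, TIMP1 lay between -0.064 and 0.16 and CD63 between -0.026 and 0.10, negative for both when the lowest siControl library was left out. SPARC stayed between 0.25 and 0.62 and LGALS3 between 0.29 and 0.54 on the log2 scale over the 20 settings. DESeq2 gave LGALS3, TGFBI and CLMAT3 no adjusted p. No member model and no member's usage was called in any setting. The TIMP1 share on annotated models was 5.36 to 7.37 percentage points higher in siDelta2-4 with each library left out.

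Over all genes, calls numbered 504 and, in the alternatives with all libraries, between 252 (known models alone, 1854 genes tested) and 514. Among these, DESeq2 called 254, an adjusted p under 0.05 gave 304 and the block on the column number 299. With a library left out they numbered between 194 and 1041. The block called 0 members, no member model and no usage. Called list genes changed in number as follows. Collagens went from 0 to 1 with library totals alone and with the length trend removed. Proteases went from 1 (BSG, lower) to 2 with library totals alone, and to 0 at an adjusted p under 0.05 and with the block. Those 2 were MMP24 (0.32, adjusted p = 0.0908) and PLAUR (0.54, adjusted p = 0.0772), both higher (edgeR). BSG was not called there. Galectins and ligands went from 1 to 0 with library totals alone, at an adjusted p under 0.05 and with the block, and to 2 with the length trend removed. Receptors went from 1 to 0 on known models alone and to 2 with the length trend removed. With each library left out, glycoproteins, proteases, galectins and the YAP, TAZ and TGF-beta list lay between 0 and 1. SPARC and LGALS3 rested on 26 to 72 counts per library, and FN1 on 2 counts in all.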
